A study of Mus musculus with 7 samples.

Results

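The 7 myelin genes Mbp, Mag, Mog, Mal, Mobp, Cnp and Cldn11 were followed through 10 snRNA-Seq libraries of mouse visual cortex. They are 7 of the 25870 cellular gene columns of the deposited count tables, and were chosen by name as genes of compact and non-compact myelin. Each was measured in oligodendrocyte-like nuclei, in precursor-like nuclei, in the other cell classes, and in barcodes too poor in RNA to be counted as nuclei. The snRNA-Seq libraries are 1 sample. They came from male C57BL/6J mice of 6 to 10 weeks whose V1 had been injected with an AAV9 library of barcoded regulatory elements (PESCA), and no uninjected snRNA-Seq sample was analysed here. The 10 libraries carry 2 set numbers with 5 libraries each, and were collected from 2 animals with 5 libraries each. No label names the animal of a set. ATAC-Seq, which measures open chromatin, came from uninjected mice of 6 to 12 weeks. It covers SST, PV and VIP interneurons of whole cortex with 2 samples per type, from Sst-IRES-Cre, Pv-Cre or Vip-IRES-Cre mice crossed to the nuclear tag SUN1-2xsfGFP-6xMYC. In those mice the Cre driver sets which nuclei were purified, so the ATAC-Seq samples hold interneuron chromatin and no oligodendrocyte sample.

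Myelin is the lipid-rich membrane that oligodendrocytes wrap around axons. Its layers are pressed together by a small set of abundant proteins, and its edges and inner loop are held in place by adhesion and junction proteins. Oligodendrocyte precursors, marked by Pdgfra, divide and differentiate into oligodendrocytes, and they switch on Cnp before the genes of mature myelin. Messenger RNA of Mbp and Mobp is carried out into the cell processes and translated there. Fragments of myelin are a familiar by-product when brain tissue is broken up for sequencing.

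Start regions of Mag, Mog, Cnp and Mobp are printed because they hold matches to the letters searched, which stand for binding motifs of 2 kinds of factor of the oligodendrocyte program. SOX-type letters were ACAAAG or AACAAT, and MYRF-type letters were CTGGCAC or CTGGTAC, each read on both strands. The windows hold 250 bases before and 50 bases after the annotated start, are taken from RefSeq on GRCm38.p6, and run 5′ to 3′ on the gene's strand. Capitals mark the matches, none of which overlap.
Mag: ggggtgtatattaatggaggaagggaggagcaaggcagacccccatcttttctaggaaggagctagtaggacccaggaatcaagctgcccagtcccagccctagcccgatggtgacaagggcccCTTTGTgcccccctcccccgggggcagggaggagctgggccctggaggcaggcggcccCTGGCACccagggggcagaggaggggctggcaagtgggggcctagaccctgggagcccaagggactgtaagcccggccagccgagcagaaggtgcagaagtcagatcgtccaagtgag
Mog: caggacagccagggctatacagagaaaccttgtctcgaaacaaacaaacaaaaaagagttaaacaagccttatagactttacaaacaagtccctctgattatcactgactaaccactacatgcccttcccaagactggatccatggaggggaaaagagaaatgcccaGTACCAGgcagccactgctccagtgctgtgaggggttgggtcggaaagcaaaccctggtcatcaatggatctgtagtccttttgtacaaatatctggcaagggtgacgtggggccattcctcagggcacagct
Cnp: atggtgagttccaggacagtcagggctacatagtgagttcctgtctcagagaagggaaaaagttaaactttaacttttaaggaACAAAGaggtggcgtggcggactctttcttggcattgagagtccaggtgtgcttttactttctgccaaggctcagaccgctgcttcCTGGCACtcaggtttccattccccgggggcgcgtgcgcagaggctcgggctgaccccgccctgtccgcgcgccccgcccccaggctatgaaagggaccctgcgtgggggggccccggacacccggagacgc
Mobp: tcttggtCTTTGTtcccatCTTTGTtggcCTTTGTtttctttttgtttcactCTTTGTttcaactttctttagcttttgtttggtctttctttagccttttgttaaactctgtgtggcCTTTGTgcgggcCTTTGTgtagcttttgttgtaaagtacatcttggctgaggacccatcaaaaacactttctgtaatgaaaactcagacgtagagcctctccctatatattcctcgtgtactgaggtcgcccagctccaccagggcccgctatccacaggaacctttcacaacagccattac

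The Mag window (chr7:30914814-30915113, minus strand) held 1 SOX-type and 1 MYRF-type match, the Cnp window (chr11:100574689-100574988, plus strand) likewise 1 of each, and the Mog window (chr17:37023349-37023648, minus strand) 1 MYRF-type match. The Mobp window (chr9:120149492-120149791, plus strand) held 6 SOX-type matches, all of them ACAAAG on the opposite strand. Mag has 3 start windows in the table, and the one nearest the gene's annotated start is shown, while each of the other genes with an entry has 1. Of the 7 genes, 6 had an entry, and the Mal and Cldn11 windows held neither kind. Among all 32851 start windows of the same length, 27.0% held a SOX-type match, 0.149% held 4 or more, and 7.10% held a MYRF-type match. The SOX-type letters were chosen after the Mobp window had been read. A match describes letters in this window and not a bound site.

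Levels are given as UMIs per 10000 cellular UMIs. A UMI is a molecular tag that counts a captured RNA molecule once, so these levels are not divided by gene length and are compared between pools of barcodes for 1 gene, not between genes. The tables held 47348 barcodes. More than 200 UMIs, counted outside the columns of single viral barcodes, left 32335 nuclei, and the other 15013 are called low-UMI barcodes. Cellular UMIs ranged from 2630677 to 3166548 per library, with 3904 to 5421 barcodes. Of 34958 different barcode names, 9663 occurred in 2 or more libraries, with 137 to 1479 names shared by a pair of libraries, and each was kept as a separate barcode in each library. No test between cell classes was made, since the labels give 1 sample and name no animal for a library, and values by library set are given as a description. Intervals are exact 95% intervals of counting error only (Poisson for levels and ratios, binomial for shares), and the range over libraries is given as a description.

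Cell classes came from marker lists that hold none of the 7 genes. A barcode was oligodendrocyte-like when it held UMIs of at least 2 of 15 markers (among them Opalin, Ermn, Aspa and Ugt8a), when the list was at least 5 times its mean over nuclei, and when no other list was further above its own mean. This gave 1367 oligodendrocyte-like nuclei, 690 in library set 1 and 677 in set 2, with 109 to 157 per library and a median of 316 UMIs. The 15 markers together stood at 358 per 10000 in them and at 2.11 in the 30365 nuclei outside the lineage. The median nucleus held 15 UMIs of the oligodendrocyte list and 0 UMIs of each of the other 7 lists. An excitatory marker was seen in 27.6% of them and an astrocyte marker in 27.9%. Doublets were not removed.

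The gate has soft edges. Of the gated nuclei, 337 held UMIs of just 2 markers, and the 7 genes stood at 188 per 10000 in them (180 to 195), against 308 (304 to 313) in the 1030 nuclei with 3 or more. Just outside, 205 nuclei with 1 marker and a list level past the limit held the 7 genes at 114 (106 to 122). On the list level itself few nuclei lay near the limit, with 38 nuclei at 4 to 5 times the mean and 31 gated nuclei at 5 to 6 times. Those 2 groups held the 7 genes at 34.5 and 37.3 per 10000. A further 58 nuclei met both limits but had another class ahead, and held the 7 genes at 88.8. Of all nuclei outside the gate, 83 held 10 or more UMIs of the 7 genes.

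All 7 myelin genes were at least 2-fold higher in oligodendrocyte-like nuclei than in nuclei outside the lineage, where 7.4% of the 11531 genes compared were. The markers of the gate were left out of these 11531 genes. Of the 30365 nuclei outside the lineage, 14928 were in no class, and these held 3668 of the 7682 UMIs of the 7 genes found there. The 7 genes summed to 284 UMIs per 10000 (281 to 288) in oligodendrocyte-like nuclei and 2.85 (2.78 to 2.91) outside the lineage, a ratio of 99.9 (97.3 to 103). Library values of the sum ran from 238 to 355 with a median of 281, all far above the highest value outside the lineage, 3.35. Of the 1367 nuclei, 98.5% held at least 1 UMI of the 7 genes, 138 nuclei held all 7 genes and 21 held none. Thinned to 300 UMIs per nucleus, which left out 637 nuclei and kept 730, the share with a UMI was 94.9%. The excitatory-like class, of neurons, which form no myelin, had a share of 12.9% at a median of 968 UMIs, and 4.50% after thinning with 575 of 10225 nuclei left out.

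**Figure D1:**
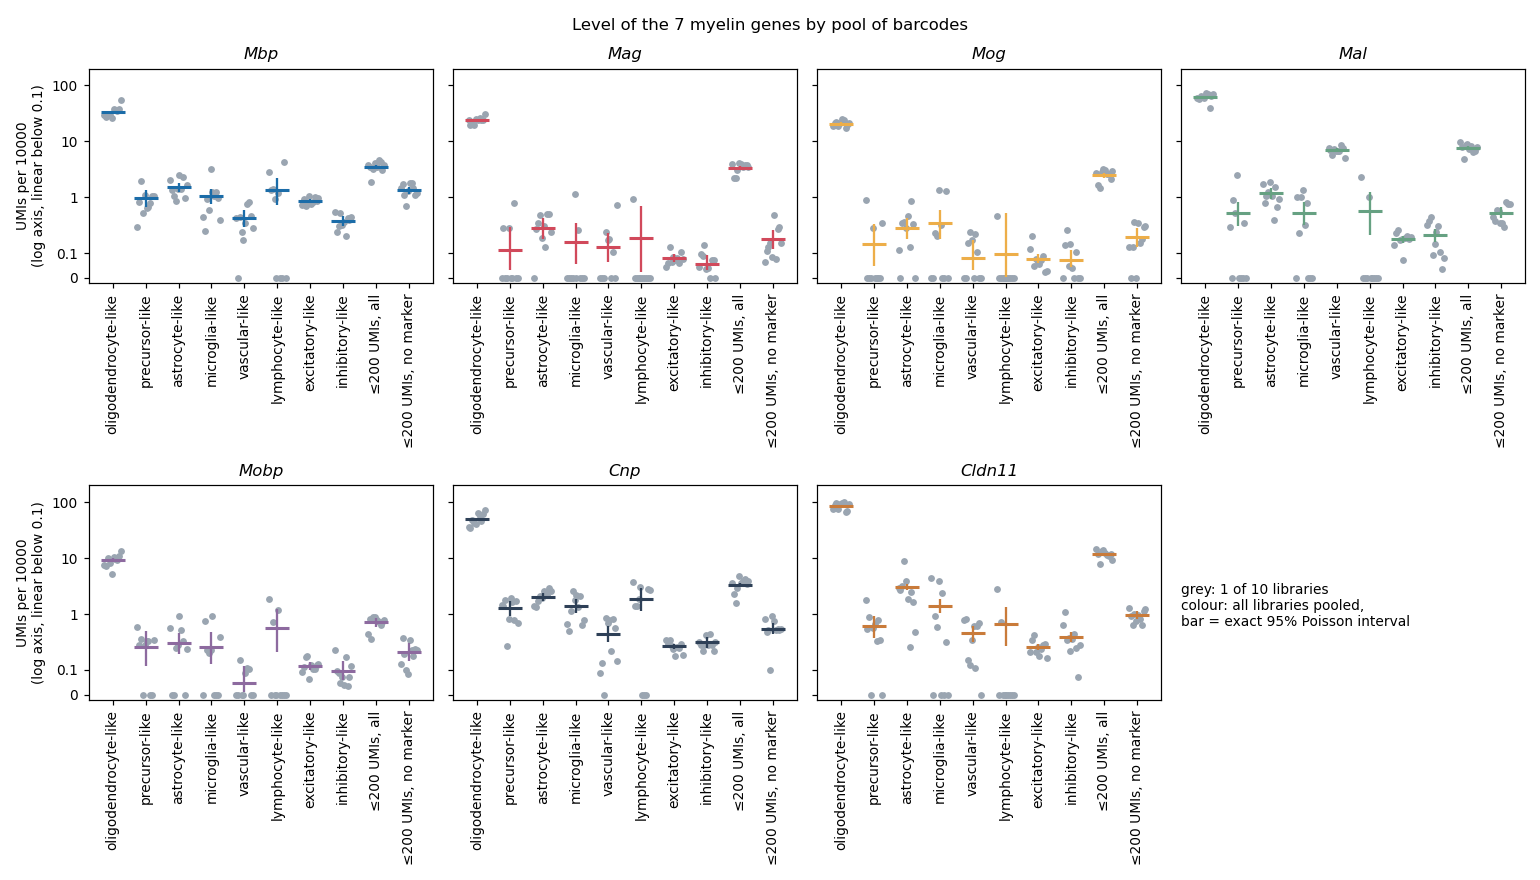
Level of each of the 7 genes (UMIs per 10000 cellular UMIs, log axis that is linear below 0.1) in 8 cell classes and 2 pools of low-UMI barcodes. Grey points are the 10 libraries, and coloured marks the pooled level with its exact 95% Poisson interval. Oligodendrocyte-like nuclei stand highest for every gene, from 9.21 for Mobp to 84.9 for Cldn11, and among the other classes vascular-like nuclei stand out for Mal at 6.94.

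The proteins of compact myelin come first. Mbp, myelin basic protein, sits on the cytoplasmic face of the membrane and pulls the layers together. Its level in oligodendrocyte-like nuclei was 34.1 per 10000 (32.7 to 35.5), from 26.4 to 53.9 over libraries with a median of 32.4, against 0.826 (0.792 to 0.861) outside the lineage. The groups of libraries lay far apart, since the highest library outside the lineage had 0.994. The ratio to nuclei outside the lineage was 41.3 (39.0 to 43.8), the lowest of the 7 genes. Mbp also had the lowest share of its UMIs in these nuclei, 45.4%, with 17.9% in excitatory-like nuclei. The Mbp locus is also known to make longer golli transcripts in neurons and other cells, and the deposited counts, which are per gene, do not separate these from myelin transcripts.

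Mbp was the one gene of the 7 whose library sets did not overlap in oligodendrocyte-like nuclei. Set 1 had Mbp levels of 30.0, 26.9, 30.5, 29.7 and 26.4, and set 2 had 38.3, 35.8, 34.4, 38.3 and 53.9. Of the 546 genes deep enough to compare, 2.38% were higher in every library of set 2 and 0.733% in every library of set 1. Cnp came close to the same order, with 34.8 to 48.6 in set 1 and 46.9 to 74.0 in set 2, and Mobp ran from 5.31 to 10.2 and from 9.43 to 13.5. Mag ran from 19.3 to 24.7 in set 1 and from 23.9 to 31.4 in set 2. For Mog, Mal and Cldn11 the whole range of set 1 lay within that of set 2. If a set number stands for an animal, animal and set cannot be told apart, and what sets the library sets apart was not tested.

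Mobp, a small basic protein that lies like Mbp at the cytoplasmic face of compact myelin, had a level of 9.21 (8.51 to 9.95), from 5.31 to 13.5 over libraries with a median of 9.56, against 0.123 (0.111 to 0.137) outside the lineage. Its ratio to nuclei outside the lineage was 74.6 (65.3 to 85.4), and 26.2% of the oligodendrocyte-like nuclei held a UMI, 23.0% after thinning. The share was 1.15% in excitatory-like nuclei and 0.352% after thinning. Mobp shares 2447 bases with Gm38642 on the same strand, so reads in that stretch cannot be assigned to 1 of the 2 genes by position.

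Mal, a proteolipid that sorts lipid-raft cargo to the myelin membrane, had a level of 61.5 (59.6 to 63.3), with library values from 39.7 to 72.8 and a median of 62.9. Outside the lineage it stood at 0.503 (0.477 to 0.531), the ratio was 122 (115 to 130), and 78.6% of the oligodendrocyte-like nuclei held a UMI, 67.0% after thinning. The thinned share was 0.415% in excitatory-like nuclei. Cldn11, the claudin that forms the tight junctions between myelin layers and is also made at the arachnoid barrier of the meninges, had a level of 84.9 (82.7 to 87.1), from 65.9 to 99.8 over libraries with a median of 91.2. Outside the lineage Cldn11 stood at 0.785 (0.752 to 0.819). Its ratio was 108 (103 to 114), and 86.0% of the nuclei held a UMI, 77.8% after thinning, against 0.642% of thinned excitatory-like nuclei.

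Mag, the adhesion glycoprotein of the membrane that faces the axon, had the largest ratio among the 11531 genes compared, which hold no marker of the gate, 211 (186 to 239). Its level was 23.7 (22.6 to 24.9) in oligodendrocyte-like nuclei, from 19.3 to 31.4 over libraries with a median of 24.1, and 0.112 outside the lineage, from 0.0833 to 0.147. Mog, an immunoglobulin-like protein of the outermost myelin surface, came next with a ratio of 193 (170 to 220) and a level of 20.7 (19.7 to 21.8), from 17.4 to 24.9 with a median of 21.2, against 0.107 outside the lineage. Cnp, the 2′,3′-cyclic nucleotide phosphodiesterase that keeps cytoplasmic channels open in non-compact myelin, had a level of 50.4 (48.8 to 52.1), from 34.8 to 74.0 with a median of 47.7, and a ratio of 129 (120 to 138). The value outside the lineage rests much on nuclei that hold a marker UMI of the gate. In the 27070 without one, Mag stood at 0.0375 from 86 of the 303 UMIs outside the lineage, a ratio of 632 (508 to 794), and Mog at 0.0436, a ratio of 475 (388 to 588), while the Mbp ratio was 44.3 (41.6 to 47.1). Leaving out nuclei by their markers also lowers genes that come with those markers, so the filter itself raises these ratios. By rank of the ratio to all nuclei outside the lineage among the same genes the 7 held places 1 (Mag), 2 (Mog), 6 (Cnp), 8 (Mal), 11 (Cldn11), 17 (Mobp) and 34 (Mbp). The places of Mal and Cldn11 depend on other classes in that reference. Vascular-like nuclei held 596 of its 1358 Mal UMIs. Without 1 cluster described below, Cldn11 stood at 0.391 outside the lineage, against 0.785 with it. Places without these nuclei were not worked out.

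Cnp overlaps Dnajc7 on the opposite strand over 8912 bases, and whether the counting used strand is not given in the sources used here. Dnajc7, a chaperone cofactor, stood at 1.91 per 10000 (1.60 to 2.26) in oligodendrocyte-like nuclei and at 2.04 (1.99 to 2.09) outside the lineage, and these intervals overlap. What part of the low Cnp levels of other classes comes from reads of Dnajc7 was not tested.

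Precursor-like nuclei held little RNA of the 7 genes. There were 603 of them, gated on 14 precursor markers such as Pdgfra, Vcan and Lhfpl3, with a median of 388 UMIs. Their precursor list stood at 119 per 10000, against 2.73 in oligodendrocyte-like nuclei. The 7 genes summed to 3.88 per 10000 (3.25 to 4.59), from 134 UMIs in all, against 2.85 in nuclei outside the lineage, a ratio of 1.36 (1.14 to 1.62). In nuclei of more than 500 UMIs the sum was 2.48, and in the precursor-like cluster 5.64. Of the 7 genes, 2 were at least 2-fold higher, where 7.73% of all genes were.

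Against nuclei outside the lineage, Cnp was the 1 gene of the 7 whose interval lay above 1. It had 44 UMIs in precursor-like nuclei, a level of 1.27 (0.925 to 1.71) against 0.391 (0.368 to 0.415) outside the lineage, a ratio of 3.26 (2.35 to 4.41). Its libraries ran from 0.263 to 1.96, and the ratio was above 1 in 9 of 10, while clusters gave 5.23. The oligodendrocyte marker list moved by a like factor, at 6.74 per 10000 in precursor-like nuclei and 2.11 outside the lineage. In the 478 precursor-like nuclei without a UMI of that list, set against nuclei outside the lineage likewise without one, the Cnp ratio was 2.55 (1.55 to 3.97) from 20 UMIs, and that of the 7 genes summed 1.02 (0.770 to 1.33). Over all precursor-like nuclei, Mobp, with 9 UMIs, had a ratio of 2.11 (0.956 to 4.05). The other 5 genes had ratios from 0.774 (Cldn11, 0.478 to 1.19) to 1.35 (Mog, 0.435 to 3.19), all with intervals that include 1. This reference holds vascular-like nuclei high in Mal and a cluster high in Cldn11, both described below. Against excitatory-like nuclei the precursor-like ratio was 4.83 (3.44 to 6.65) for Cnp, 2.92 (1.70 to 4.74) for Mal and 2.36 (1.44 to 3.68) for Cldn11. The other intervals there included 1. The oligodendrocyte list stood at 1.58 in excitatory-like nuclei. Mag had 4 UMIs and Mog 5 UMIs in all 603 nuclei.

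The level of Cnp in precursor-like nuclei was not the highest among other classes. Astrocyte-like nuclei held Cnp at 2.06 (1.74 to 2.41), and the precursor to astrocyte ratio was 0.619 (0.432 to 0.870). Microglia-like nuclei held it at 1.41 (1.06 to 1.85) and lymphocyte-like nuclei at 1.89 (1.16 to 2.92), neither of which can be told from the precursor level by their intervals. The oligodendrocyte list stood at 5.46 in astrocyte-like, 6.63 in microglia-like and 3.59 in lymphocyte-like nuclei, against 1.58 in excitatory-like ones, and its part in these Cnp levels was not tested.

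The order differed with depth. Among barcodes of more than 200 and up to 400 UMIs, precursor-like nuclei held the 7 genes at 6.93 per 10000 (5.27 to 8.93), and barcodes with no oligodendrocyte marker at 3.03 (2.81 to 3.27). Over 400 and up to 800 UMIs the levels were 5.50 (4.07 to 7.27) and 2.34 (2.20 to 2.49). Above 800 UMIs they were 1.52 (0.992 to 2.22) and 1.81 (1.74 to 1.87), so there the order was not seen. Precursor-like nuclei were not filtered by the marker list here, so the sides compared are unlike at every depth. Over all depths, precursor-like nuclei without a marker UMI had a ratio of 1.02 (0.770 to 1.33) to nuclei outside the lineage likewise without one. In 227 precursor-like nuclei with a UMI of a committed precursor gene (Gpr17, Bcas1, Neu4, Tcf7l2 or Itpr2), the 7 genes stood at 5.00 (3.82 to 6.44), against 3.28 (2.58 to 4.12) in the other 376, a ratio of 1.52 (1.07 to 2.17). The oligodendrocyte list stood at 10.3 in the former and 4.83 in the latter. Among the 7 genes the ratio was largest for Mal, 4.89 (1.64 to 17.5), at 1.08 against 0.222 from 13 UMIs against 5. Mobp followed at 2.35 (0.506 to 11.8), from 5 UMIs against 4, and then Mbp at 1.77 (0.837 to 3.73). Mag and Mog went the other way. The 13 Mal UMIs lay in 4 nuclei of set 1. The sum was higher in committed nuclei in 5 of 10 libraries.

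Other genes of myelin and its program give the background to this contrast. A list of 30 was followed, none of them a gate marker, and all 30 were found. In oligodendrocyte-like nuclei 29 of 30 were at least 2-fold above nuclei outside the lineage, where 7.4% of all genes compared were. The median ratio was 25.9 beside 0.754 over all genes compared. Fa2h, which hydroxylates the fatty acids of myelin lipids, had a ratio of 171 (146 to 201.2). Sgk1, a stress-induced kinase, was the exception at 1.09 (0.834 to 1.399).

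In precursor-like nuclei 17 of the 30 were at least 2-fold higher, where 7.73% of all genes were, with a median ratio of 2.69 beside 0.962 over all genes. At least 2-fold lower were 2 genes, both with intervals that include 1. Another 2 had intervals below 1 but were less than 2-fold lower. Among the transcription factors of the lineage, Olig2 stood at 7.26 per 10000 in precursor-like and 3.49 in oligodendrocyte-like nuclei, Olig1 at 20.7 and 18.2, and Sox10 at 3.39 and 8.45. Lpar1, a receptor for lysophosphatidic acid, had a ratio of 0.491 (0.0592 to 1.79). Fa2h stood at 0.376 in precursor-like and 12.1 in oligodendrocyte-like nuclei, Tspan2, a tetraspanin, at 0.955 and 30.0, and Cd9, another tetraspanin, at 8.02 and 9.28.

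The genes most like the 7 were found by the correlation of log2(level + 0.1) with their sum, over 90 points made of 9 pools in 10 libraries, each gene of the 7 being held against the other 6. Lpar1 (r = 0.883), Car2 (0.866), Tmem88b (0.865), Gpr37 (0.858), Ttyh2 (0.842), Fa2h (0.830) and Efhd1 (0.829) were among the 8 closest. The points share libraries and one gate, so r is a description. The 7 genes themselves had r from 0.801 (Mobp) to 0.890 (Cldn11).

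Excitatory-like nuclei carried Mbp out of proportion to the other 6 genes. In 10225 excitatory-like nuclei Mbp stood at 0.853 per 10000 (0.799 to 0.909), from 0.705 to 1.03 over libraries. In 2585 inhibitory-like nuclei it stood at 0.370 (0.299 to 0.454), from 0.202 to 0.535. The libraries of the classes did not overlap, and the ratio was 2.30 (1.86 to 2.88), above 1 in 10 of 10 libraries. Mbp was the 1 of 7 genes at least 2-fold higher, where 6.53% of all genes were.

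The other 6 genes had excitatory to inhibitory ratios from 0.666 (Cldn11, 0.527 to 0.848) up to that of Mag, whose interval ran from 0.792 to 2.67. After thinning to 300 UMIs, Mbp was seen in 2.26% of excitatory-like nuclei (1.97 to 2.58) and 1.07% of inhibitory-like nuclei (0.696 to 1.58), with 256 inhibitory-like nuclei left out. Unthinned, the shares were 7.34% and 3.40% at medians of 968 and 843 UMIs. Both neuron classes stood below low-UMI barcodes that lacked a marker UMI, where Mbp was at 1.34 (1.16 to 1.54). Which part of the neuronal Mbp is free RNA and which is made in the nucleus was not tested.

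The make-up of the 7-gene RNA differed in the same way. Mbp gave 46.7% of the 7-gene UMIs in excitatory-like nuclei (44.5 to 48.9), 24.7% in inhibitory-like nuclei (20.5 to 29.4) and 12.0% in oligodendrocyte-like nuclei (11.5 to 12.4). By library, the excitatory-like share ran from 33.8% to 55.1% and the oligodendrocyte-like share from 9.69% to 15.2%. Low-UMI barcodes without a marker UMI lay between them at 33.9% (30.1 to 37.9). In clusters built without the 7 genes, Mbp ran from 0.586 to 1.86 over 10 excitatory-like clusters and from 0.367 to 0.494 over 4 inhibitory-like clusters. The highest was a cluster of 1068 nuclei led by the immediate early genes Atf3 and Egr2.

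**Figure D2:**
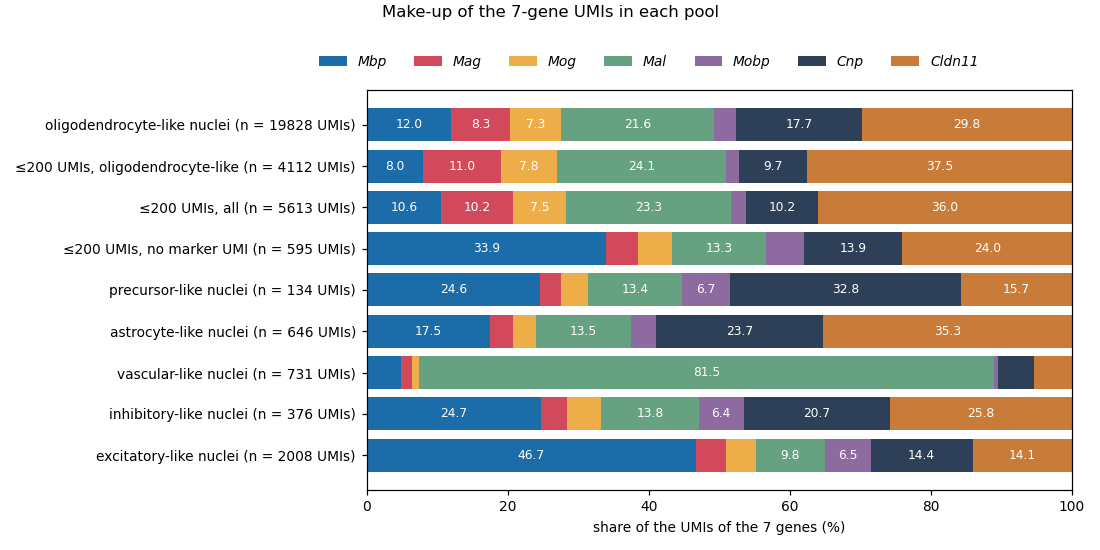
Share (percent) of the UMIs of the 7 genes that each gene gave in each pool of barcodes, with the number of UMIs in brackets. Mbp gives 46.7% in excitatory-like nuclei against 12.0% in oligodendrocyte-like nuclei, Mal 81.5% in vascular-like nuclei, and Mbp in all low-UMI barcodes gives 10.6%.

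Vascular-like nuclei carried Mal. In 569 nuclei gated on genes such as Cldn5, Flt1 and Rgs5, Mal stood at 6.94 per 10000 (6.39 to 7.52), from 5.02 to 8.62 over libraries, against 0.178 (0.154 to 0.205) in excitatory-like nuclei. The ratio was 39.0 (33.1 to 46.0), and 59.8 between clusters. Mal was the 1 gene of 7 at least 2-fold higher, where 18.8% of the genes compared were. It made up 81.5% of the 7-gene UMIs in these nuclei (78.5 to 84.3), against 21.6% in oligodendrocyte-like nuclei.

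A Mal UMI was found in 42.5% of vascular-like nuclei at a median of 1102 UMIs and in 15.01% (12.0 to 18.5) after thinning, with 76 nuclei left out. Excitatory-like nuclei gave 1.29% and 0.415%. The oligodendrocyte list stood at 2.17 per 10000 in vascular-like nuclei, beside 2.11 over all nuclei outside the lineage, and Mag, Mog and Mobp stood at 0.128, 0.0815 and 0.0466. Cnp stood at 0.442, a ratio to excitatory-like nuclei of 1.68 (1.16 to 2.36), Cldn11 at 0.454, a ratio of 1.77 (1.23 to 2.47), and Mbp at 0.419, a ratio of 0.492 (0.342 to 0.686). Cnp was above the excitatory-like level in 5 of 10 libraries, Cldn11 in 6 and Mbp in 0. The vascular-like cluster built without the 7 genes, with 579 nuclei led by Rgs5 and Cldn5, held Mal at 6.90.

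Cldn11 was also high in 1 cluster outside the lineage. In a cluster of 706 nuclei led by Slc47a1, Col1a1, Col3a1, Col1a2, Dcn and Ogn, most of them genes of collagens and other matrix proteins, Cldn11 stood at 16.3 per 10000 (15.4 to 17.3) from 1123 UMIs, and 40.2% of the nuclei held a UMI. The cluster has no name because none of the 8 marker lists describes it. In the remaining 29672 nuclei outside the lineage Cldn11 stood at 0.391 (0.368 to 0.416). The oligodendrocyte list stood at 4.37 in the cluster and the astrocyte list at 81.8.

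The same cluster bears on the astrocyte-like value. Cldn11 stood at 3.07 (2.68 to 3.49) in 1433 astrocyte-like nuclei, from 0.259 to 8.91 over libraries. The 99 of these nuclei that lay in the collagen cluster held it at 20.4 (17.2 to 24.1), and the other 1334 at 1.32 (1.06 to 1.62). Of 14928 nuclei in no class, 523 lay in the cluster and held Cldn11 at 16.3, against 0.479 in the rest. The ratio of astrocyte-like to excitatory-like nuclei, 11.9 (9.97 to 14.2), was 7.41 between clusters, 28.9 in nuclei of more than 500 UMIs, 14.9 in set 1 and 5.78 in set 2.

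**Figure D3:**
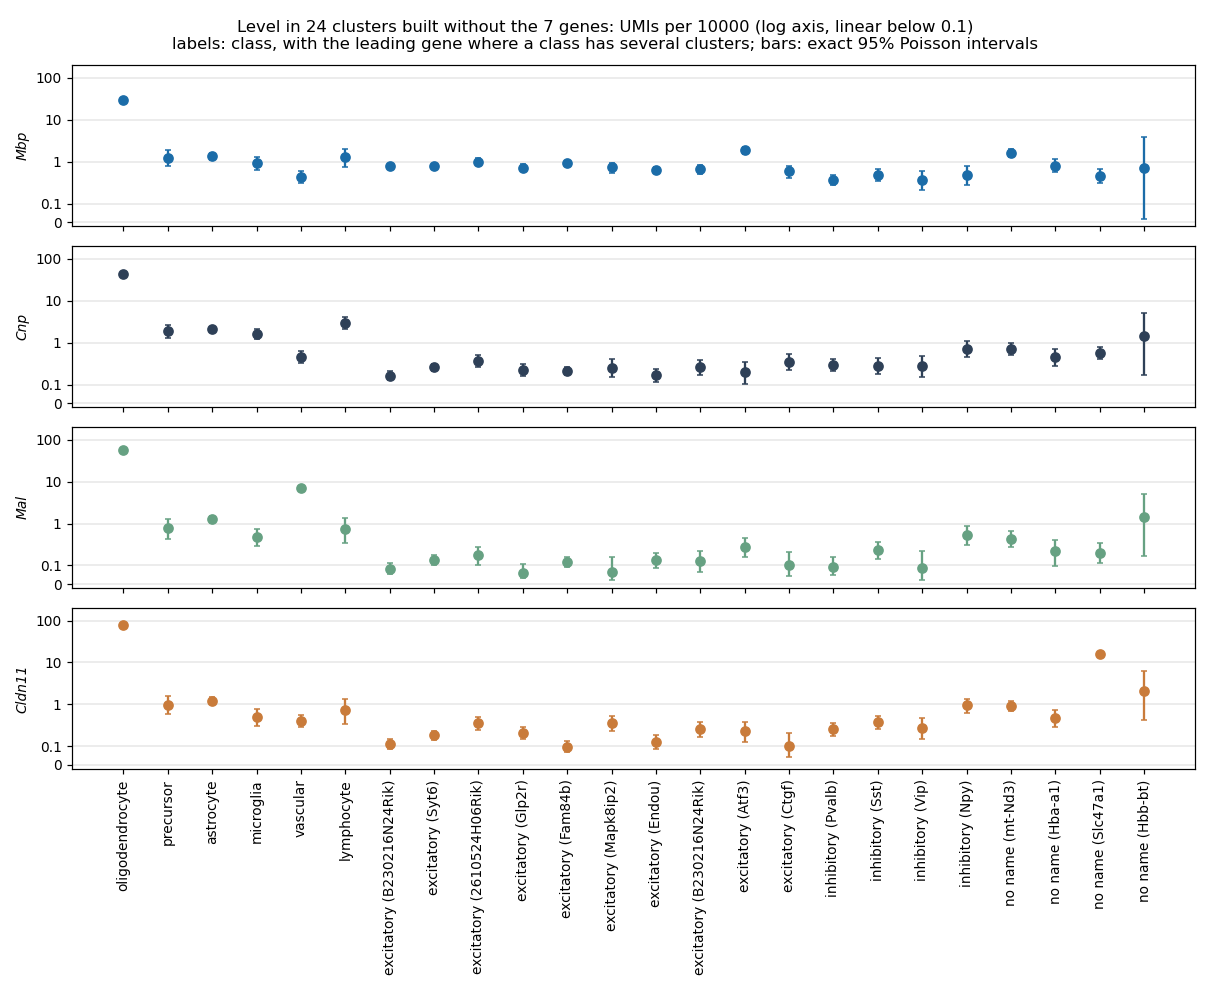
Level of Mbp, Cnp, Mal and Cldn11 (UMIs per 10000, log axis that is linear below 0.1) in the 24 clusters built without the 7 genes, labelled by class, with the leading gene where a class has several clusters, and with exact 95% Poisson intervals. Beside the oligodendrocyte-like cluster, Mal stands out in the vascular-like cluster at 6.90 and Cldn11 in the collagen cluster at 16.3, while Mbp is spread over the excitatory-like clusters at 0.586 to 1.86.

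The orders over the 8 classes can be put gene by gene. The classes differ in depth, with medians of 343 UMIs in astrocyte-like, 388 in precursor-like, 524 in microglia-like and 604.5 in lymphocyte-like nuclei. Medians were 843 in inhibitory-like, 968 in excitatory-like and 1102 in vascular-like nuclei. In barcodes without an oligodendrocyte marker UMI, Cnp stood at 0.589 at over 200 up to 400 UMIs and at 0.240 above 800. The part of depth in these orders was not tested. For Mbp, oligodendrocyte-like nuclei were followed by astrocyte-like (1.52, 1.25 to 1.83), lymphocyte-like (1.32), microglia-like (1.05), precursor-like (0.955), excitatory-like (0.853), vascular-like (0.419) and inhibitory-like nuclei (0.370). Each neighbour pair below the oligodendrocyte-like class had intervals that overlap, except excitatory-like and vascular-like. For Cnp the order was astrocyte-like, lymphocyte-like, microglia-like, precursor-like, vascular-like (0.442), inhibitory-like (0.311) and excitatory-like (0.264), and again neighbours overlapped but for precursor-like and vascular-like. Mag, Mog and Mobp stayed under 0.6 in every class but the oligodendrocyte-like one, and their neighbours overlapped throughout. For Mal the order was vascular-like, astrocyte-like (1.17, 0.937 to 1.44), lymphocyte-like (0.567), microglia-like (0.524), precursor-like (0.521), inhibitory-like (0.207) and excitatory-like (0.178). Its gaps between vascular-like and astrocyte-like and between precursor-like and inhibitory-like nuclei were wider than the intervals. For Cldn11 the order was astrocyte-like, microglia-like (1.41, 1.06 to 1.85), lymphocyte-like (0.662), precursor-like (0.608), vascular-like (0.454), inhibitory-like (0.386) and excitatory-like (0.257). There the first and the last pair had intervals that do not overlap, but the place of the astrocyte-like class rests on its 99 nuclei of the collagen cluster. Without them it stood at 1.32 (1.06 to 1.62), just below the microglia-like value and with an interval that overlaps it. The microglia-like value came from 54 UMIs in 14 nuclei, and Cldn11 stood at 0.511 (0.312 to 0.789) in the microglia-like cluster.

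Low-UMI barcodes were then taken as the reference for RNA outside nuclei. Their median was 123 UMIs. All 7 genes were at least 2-fold higher in the 15013 low-UMI barcodes than in all nuclei, where 1.78% of 11542 genes were. Of the 7, Mag had the largest ratio, 4.81 (4.37 to 5.28), with 3.36 per 10000 in low-UMI barcodes and 0.699 in nuclei, and Mobp the smallest, 2.02 (1.66 to 2.44). The low-UMI sum was 32.9 per 10000 (32.0 to 33.8), from 20.0 to 40.4 over libraries with a median of 33.7, against 9.87 (9.75 to 9.98) in nuclei.

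Set against nuclei outside the lineage, the low-UMI sum was 11.6-fold higher (11.2 to 12.0). All 7 genes passed 2-fold here too, where 2.19% of the genes compared did. Of the 7, Mag had the largest ratio, 29.9 (26.0 to 34.5), then Mog at 23.1, Mal at 15.3, Cldn11 at 15.1, Cnp at 8.58, Mobp at 5.74 and Mbp at 4.22 (3.85 to 4.63). The oligodendrocyte marker list itself was 21.2-fold higher (20.5 to 22.0). The gate took nuclei high in this list out of the reference but left such barcodes in the low-UMI pool. The ratios of the list and of the 7 genes given here are therefore raised by the gate.

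Most of this RNA lay in a small share of the low-UMI barcodes. The same gate called 710 of the 15013 oligodendrocyte-like, with a median of 164 UMIs, and these held 4112 of the 5613 low-UMI molecules of the 7 genes. Their sum was 364 per 10000 (353 to 375), above the 284 of oligodendrocyte-like nuclei. With these barcodes left out, the low-UMI sum was 9.42 (8.95 to 9.91), 3.31-fold (3.13 to 3.50) that of nuclei outside the lineage, and all 7 genes were still at least 2-fold higher, where 1.68% of all genes were. The marker list itself stood at 9.17 per 10000 in these barcodes, against 2.11 in nuclei outside the lineage. At their median of 120 UMIs, the demand for 2 markers leaves barcodes with 1 marker in the pool. These ratios are therefore still raised by the gate.

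With every low-UMI barcode that held an oligodendrocyte marker UMI left out, 13643 remained and their sum was 3.95 (3.64 to 4.28), 1.39-fold (1.27 to 1.51) that of nuclei outside the lineage. With the nuclei not filtered, 0 of the 7 genes were at least 2-fold higher, where 1.43% of the genes compared were. Leaving out barcodes by their markers also lowers genes that come with those markers, so the nuclei were then filtered in the same way. Of the nuclei outside the lineage, 3295 had a marker UMI and held the 7 genes at 7.54 (7.27 to 7.81), and 27070 had none and held them at 2.02 (1.96 to 2.08). Against these 27070 the low-UMI sum was 1.95-fold (1.79 to 2.13), and above 1 in 10 of 10 libraries. Mag, with a ratio of 4.78 (2.98 to 7.44) from 27 low-UMI molecules, and Mog, with 4.42 (2.82 to 6.74) from 29, were at least 2-fold higher, where 1.6% of the genes compared were. The other 5 ran from 1.74 for Mbp (1.498 to 2.02) to 1.97 for Cldn11 (1.65 to 2.35), and all 7 intervals lay above 1. The low-UMI barcodes without a marker UMI had a median of 119 UMIs and these nuclei 695, so the same filter asks less of a low-UMI barcode.

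**Figure D4:**
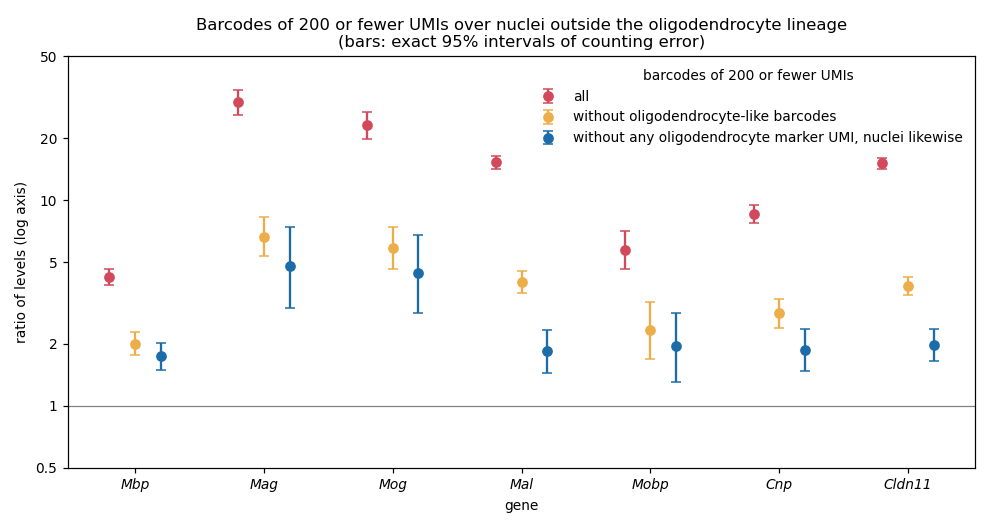
Ratio (log axis) of the level in low-UMI barcodes to that in nuclei outside the lineage for each of the 7 genes, for all low-UMI barcodes, for those outside the oligodendrocyte gate, and for those without a marker UMI set against nuclei without one, with exact 95% intervals. Mag goes from 29.9 over 6.65 to 4.78 and Mbp from 4.22 over 2.01 to 1.74, and in the last comparison Mag and Mog are the genes above 2-fold.

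The make-up of the low-UMI RNA differed with the same step. Mbp gave 10.6% of the 7-gene UMIs in all low-UMI barcodes, close to its 12.0% in oligodendrocyte-like nuclei. It gave 17.6% in those outside the gate and 33.9% in those without a marker UMI. Cldn11 stood at 11.8 per 10000 (11.3 to 12.4) in all low-UMI barcodes, from 7.81 to 14.5 over libraries. Whether the 710 gated barcodes are small or damaged nuclei, myelin fragments or free RNA was not tested.

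Within the oligodendrocyte-like gate the 7 genes did not go the same way between low-UMI barcodes and nuclei. The ratio of low-UMI to nuclei was 1.69 for Mag (1.52 to 1.88), 1.61 for Cldn11 (1.52 to 1.70), 1.42 for Mal (1.33 to 1.53) and 1.37 for Mog (1.21 to 1.55), beside 1.52 (1.48 to 1.56) for the marker list of the gate. For Mbp it was 0.858 (0.763 to 0.963), for Mobp 0.720 (0.559 to 0.916) and for Cnp 0.696 (0.626 to 0.772). Libraries with a ratio above 1 numbered 10 of 10 for Mag and Cldn11, 9 of 10 for Mog and Mal, 5 for Mbp, 3 for Mobp and 1 for Cnp. Set against nuclei of more than 500 UMIs the Mbp ratio was 1.10, and in the 17 gated barcodes of up to 100 UMIs Mag had no UMI and Mog had 1 UMI (a ratio of 0.400), with intervals of 0 to 30.6 and 0.210 to 46.2 per 10000 that hold the nuclear levels. A gated barcode of few UMIs needs at least 2 markers, so the gate itself asks for a higher list level at low depth.

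**Figure D5:**
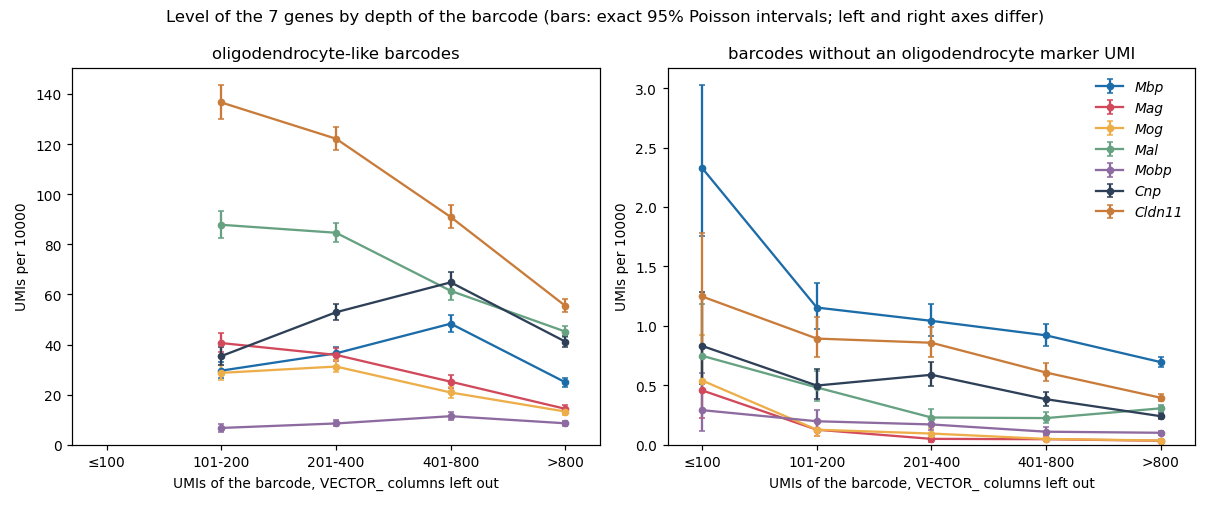
Level (UMIs per 10000) of the 7 genes by the depth of the barcode, in oligodendrocyte-like barcodes and in barcodes without an oligodendrocyte marker UMI, with exact 95% Poisson intervals and axes of different height. In oligodendrocyte-like barcodes, Cldn11 goes from 137 at over 100 and up to 200 UMIs to 55.4 above 800 UMIs. There Cnp, Mbp and Mobp are highest between 400 and 800 UMIs. In barcodes without a marker UMI, Mbp goes from 2.33 up to 100 UMIs to 0.695 above 800, and that filter is stricter in deeper barcodes.

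The genes also differed in how their levels ran with depth. In barcodes of over 100 up to 200, up to 400, up to 800 and above 800 UMIs, Cldn11 stood at 137, 122, 90.9 and 55.4 per 10000 in oligodendrocyte-like barcodes. Mag went from 40.6 over 35.8 and 25.2 to 14.3, lower at each step. Mal went from 87.8 over 84.6 and 61.4 to 45.1, and Mog from 28.7 over 31.2 and 20.9 to 13.2. Cnp instead went from 35.4 over 52.9 to 64.8 and then to 41.1. Mbp went from 29.6 over 36.5 to 48.3 and then to 24.9, and Mobp from 6.70 over 8.50 to 11.4 and then to 8.56. The 4 depth groups held 693, 834, 292 and 241 barcodes. The share with an excitatory marker UMI was 11.4%, 16.2%, 33.2% and 60.2% in the same order, and the marker list of the gate stood at 543, 504, 386 and 241. The part of neuron RNA in the deepest group was not tested.

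In barcodes without an oligodendrocyte marker UMI the 7-gene sum also stood lower with depth, at 6.44 (5.47 to 7.54) up to 100 UMIs, 3.48, 3.03, 2.34 and 1.81 (1.74 to 1.87) above 800 UMIs. Asking for no marker UMI is a stricter filter in a deeper barcode. It kept 97.1% of barcodes up to 100 UMIs and 83.5% of those above 800. The part of this filter in the fall was not tested. Up to 100 UMIs the gate called 17 of 5052 barcodes. Over all 5052, the sum was 9.17 (8.02 to 10.4), against 37.0 (36.0 to 38.0) over 100 and up to 200 UMIs, so the myelin RNA of low-UMI barcodes lay mostly in their deeper part. The pooled viral column took 6.26% of the low-UMI and 1.60% of the nuclear UMIs and was left out of all levels.

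Among the list of 30 other myelin genes, 15 were at least 2-fold higher in low-UMI barcodes than in nuclei, where 1.78% of all genes were. The median ratio was 2.16 beside 0.963 over all genes. Fa2h (4.34, 3.79 to 4.96) and Gpr37 (4.03) were near Mag and Cldn11. Tppp, which bundles microtubules and is also made in neurons, had 1.30, and Sgk1 0.855. The genes most shifted to low-UMI barcodes were none of the 7. Olfr1390 (14.4-fold), Boll (12.0), Engase (9.95), Kank2 (9.21) and Cd68 (7.85) led.

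Over all barcodes, oligodendrocyte-like nuclei held 59.6% of the 7-gene UMIs and gated low-UMI barcodes 12.4%. By gene the nuclear share ran from 45.4% for Mbp to 67.8% for Cnp. The gated low-UMI share ran from 6.33% for Mbp to 17.9% for Mag. Mbp, Mag and Mog put 5.05%, 4.70% and 4.63% of their UMIs in low-UMI barcodes outside the gate.

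In interneuron chromatin the starts of the 7 genes ran from almost no reads for Mag to levels above the median gene for Mbp and Cldn11. The 6 ATAC-Seq samples had 1801883 to 2256073 reads on the reference regions. On regions within 1 kb of the start, Mag (mm10 chr7:30899176-30914873, minus strand) had 1 read in all 6 samples together, in SST replicate 2, a mean of 0.0739 RPM, which are reads scaled to the reads on all regions. Mog (chr17:37010743-37023398, minus strand) had 8 reads, from 0 to 3 per sample and a mean of 0.674. Mobp (chr9:120149707-120181484, plus strand) had 13 reads and a mean of 1.11, and Mal (chr2:127633226-127656695, minus strand) 34 reads and a mean of 2.79.

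Cnp (chr11:100574904-100591729, plus strand) had a mean of 6.00, from 2.98 to 9.45, and Cldn11 (chr3:31149920-31164324, plus strand) a mean of 13.9, from 8.32 to 22.8. Mbp (chr18:82475146-82585637, plus strand) had the highest mean, 18.5, from 10.7 to 31.5. Its window lies at the start of the whole annotated gene of 110492 bases. Starts further inside the gene were not measured, so the Mbp value does not tell golli from myelin transcripts. The median over 21924 protein-coding genes was 8.40, so Mbp and Cldn11 lay above it and the other 5 genes below. Of those genes 25.8% had no region near their start. By sample, Mbp had 10.7 and 14.98 RPM in PV, 13.4 and 22.4 in VIP, and 18.4 and 31.5 in SST. The VIP values overlapped in range with those of PV and of SST, while both SST values lay above both PV values. With 2 samples per type no test was made.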

How the data were processed

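For snRNA-Seq, the authors aligned inDrops reads with the inDrops pipeline and deposited UMI counts, one table of barcodes by genes per library, with all cellular genes, single viral barcodes and 1 pooled viral column. These counts are raw. For ATAC-Seq, the authors deposited read counts on reference regions drawn from these and other cortical populations. The submitters' processing notes name GRCm38/mm10, Subread 1.4.6-p3, Trimmomatic 0.33 and featureCounts. The region coordinates were used as deposited, while signal tracks and the authors' own comparisons were not used. Here the pooled viral column counted toward the limit of 200 UMIs but not toward levels. Marker lists and members were chosen with earlier results of these data known, and the gate multiples (5 for non-neuronal lists, 2 for inhibitory, 1 for excitatory) were set after the data had been seen. Genes with at least 200 UMIs over all barcodes were compared, with 0.5 counts added for ranks. The genes named beside the 7 are the 8 most like them, the 8 most shifted to low-UMI barcodes and the list of 30 with its extremes and examples. Dnajc7, the collagen cluster and the Atf3 cluster were singled out after their values had been seen. Clusters used scanpy 1.11.5 and leidenalg 0.10.2 (3000 variable genes, 30 components, 20 neighbours, resolution 1.5) without the 7 genes. Intervals used SciPy 1.17.1, numpy 2.4.6 and pandas 2.3.3 under Python 3.11.15, and the code was tested on simulated data. Doublets were not removed. The alternatives were other gates, clusters, depth limits, ambient pools and nuclei without a marker UMI, single library sets and leaving out each library. Some genes, and 1 alternative that rests on one of them, are not reported here.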

Additional observations from a re-analysis of the deposited data

Results flagged for a closer look

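Of 16 groups of 10 library values (the 7 genes and their sum, in oligodendrocyte-like nuclei and in low-UMI barcodes), 4 had a library whose gap to its nearest neighbour as a share of the whole range was above the limit Dixon gives for 10 values. About 1 group in 20 would show this by chance. In oligodendrocyte-like nuclei, library 5 of set 2 had the highest Mbp level, 53.9 per 10000, and the pooled level was 34.1 with it and 32.4 without it. That library was also highest for Mag, Mobp, Cnp and the sum, but with gaps under the limit. Library 3 of set 2 had the lowest Mal level, 39.7, and the pooled level was 61.5 with it and 64.4 without it. It was also lowest for Mog, Cldn11 and the sum, again with gaps under the limit. In low-UMI barcodes, library 3 of set 1 was lowest for Mbp, at 1.85 against 3.49 in the pool and 3.67 without it. The same library was lowest for the 7 genes summed, at 20.0 against 32.9 in the pool and 34.3 without it. It was lowest in low-UMI barcodes for each of the 7 genes, so its low value is not particular to Mbp. These libraries held 109, 147 and 1443 barcodes of the pools named.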

How the results depend on the processing

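No paired test was run, and classes were compared within each library by counts of libraries and by library set as a description. The alternatives of the pooled viral column among the UMIs, the limit of 200 on cellular UMIs, low-UMI barcodes outside the gate, and low-UMI barcodes and nuclei both without a marker UMI were chosen after the data had been seen. The limit of more than 500 UMIs left 492 of 1367 oligodendrocyte-like nuclei, and set 1 held 690 and set 2 677 of the 1367. The 7-gene sum in oligodendrocyte-like nuclei (284 per 10000) was 308 with 1 more marker asked for, 289 with a gate on the other 6 genes, 256 in clusters, 196 above 500 UMIs, 267 in set 1 and 302 in set 2. In precursor-like nuclei (3.88) it was 5.64 in clusters, 2.48 above 500 UMIs and 3.11 in set 2. In excitatory-like nuclei (1.83) it was 2.04 with 1 more marker, 1.55 in clusters, 1.65 above 500 UMIs and 1.91 in set 1. In low-UMI barcodes (32.9) it was 9.17 up to 100 UMIs, 3.95 without a marker UMI, 30.8 with the viral column and 9.42 outside the gate. The ratio of low-UMI barcodes to nuclei outside the lineage (11.6) was 8.69 with 1 more marker, 13.2 in clusters, 13.9 above 500 UMIs, 3.22 up to 100 UMIs, 1.39 without a marker UMI, 1.95 with nuclei likewise without one, 11.01 with the viral column, 3.31 outside the gate, 10.2 in set 1 and 13.3 in set 2. The share of Mbp among the 7 genes in oligodendrocyte-like nuclei (12.0%) was 12.5% with 1 more marker, 13.5% above 500 UMIs, 10.8% in set 1 and 13.0% in set 2. In low-UMI barcodes (10.6%) it was 27.1% up to 100 UMIs, 33.9% without a marker UMI and 17.6% outside the gate. ATAC-Seq at the 7 starts (43.1 RPM) was 72.8 within 5 kb. Within the gate, the Mbp ratio of low-UMI barcodes to nuclei (0.858) was 1.10 against nuclei above 500 UMIs, and the cause was not tested. In the 17 gated barcodes up to 100 UMIs the ratio was 0 for Mag and 0.400 for Mog, from 0 and 1 UMI, too few to show a change. Leaving out each library gave 1210 to 1258 oligodendrocyte-like nuclei, and sums of 278 to 291 in these, 3.49 to 4.19 in precursor-like and 1.79 to 1.87 in excitatory-like nuclei, and 32.2 to 34.3 in low-UMI barcodes. The ratio then ran from 11.3 to 12.2, and the Mbp share from 11.6% to 12.2% in oligodendrocyte-like nuclei and from 10.4% to 10.8% in low-UMI barcodes. With single libraries kept in, 134 values of single genes or of shares with a UMI fell outside the counting interval of their main value. Another 191 did not, and the 3 named above crossed 1. Of the other values 40 moved in this way and 65 did not, with a fixed fold limit for the count of nuclei. The Cldn11 ratio of astrocyte-like to excitatory-like nuclei (11.9) ran from 5.78 to 28.9, the Mal ratio of vascular-like to excitatory-like nuclei (39.0) from 29.9 to 59.8, and the Mbp ratio of excitatory-like to inhibitory-like nuclei (2.30) from 2.00 to 2.44. Depth limits the precursor values, with 4 UMIs of Mag and 5 of Mog.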

Other observations

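Among clusters built without the 7 genes, a cluster of 1073 nuclei that no marker list names was led by mitochondrial genes such as mt-Nd3 and mt-Nd1, and Mbp stood at 1.63 per 10000 in it. A cluster of 954 nuclei was led by the hemoglobin genes Hba-a1 and Hba-a2, and Mbp stood at 0.812. In the 455 low-UMI barcodes with a single oligodendrocyte marker UMI, the 7 genes stood at 23.8 per 10000 (20.0 to 28.2), between the 3.95 of barcodes without one and the 364 of gated barcodes. In oligodendrocyte-like nuclei the number of the 7 genes seen per nucleus was most often 4, in 301 nuclei, then 5, in 284 nuclei, and 3, in 223 nuclei.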
